A study of Homo sapiens with 12 samples.

Results

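TRAIL is a death ligand of the TNF family. The 10 genes described here encode TRAIL receptors, the related receptors FAS and TNFRSF1A, and the proteins that carry their signals to caspase-8. The receptor genes are TNFRSF10A, TNFRSF10B, TNFRSF10D, FAS and TNFRSF1A. FADD, TRADD, RIPK1, CASP8 and CFLAR encode the adaptors, the kinase, the caspase and its regulator. The genes were chosen as a pathway, with the fall of TNFRSF10D under ML60218 already known, from 34318 genes with a matched transcript. Of the 10 genes, 9 passed the filter on low counts, and TNFRSF10A did not.

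The cells were HEK293T, an established human line derived from embryonic kidney, and the measurement was messenger RNA sequencing of 12 libraries in 4 groups of 3. The siControl and siPOLR3A libraries came from cells given a control siRNA or an siRNA against POLR3A, the catalytic subunit of RNA polymerase III (Pol III), and were collected after 2 days. The DMSO and ML60218 libraries came from cells kept for 4 hours with 0.1% DMSO or with 25 µM ML60218, a Pol III inhibitor. No cells were treated with TRAIL or another death ligand as far as the labels say. The cell line field gives HEK293T for every library, although the titles of the DMSO and ML60218 libraries use a shorter form of the name. All libraries are of 1 cell line, and the labels give neither the sequence nor the number of the siRNAs. Nothing says that the replicates were separate cultures, so each p-value measures only the spread between these libraries, which may be technical.

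Death receptors of this family carry an intracellular death domain. When TRAIL or FAS ligand gathers TNFRSF10A, TNFRSF10B or FAS at the membrane, the death domains bind FADD. FADD recruits pro-caspase-8 through death effector domains, and caspase-8 then cleaves itself and the executioner caspases. CFLAR encodes c-FLIP, a relative of caspase-8 that lacks its catalytic activity and competes for the same complex. TNFRSF10D is a TRAIL receptor with a truncated death domain and is usually described as a decoy. TNFRSF1A, the main TNF receptor, first assembles TRADD and RIPK1 into a complex that activates NF-kB.

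Libraries held between 37008325 and 49479476 estimated reads. POLR3A, the target of the siRNA, was at 92.2, 93.5 and 86.8 CPM (read counts scaled to library size) in siControl and at 19.3, 19.0 and 14.6 in siPOLR3A. It fell by 2.36 on the log2 scale (SE 0.11, adjusted p = 1.938e-05, edgeR quasi-likelihood test with Benjamini-Hochberg adjustment). Of 6 markers of other cell types, 4 were below the filter: PTPRC was listed at 0 reads in every library, CD3E had at most 1 read, PECAM1 at most 10 and COL1A2 at most 5. CD14 had 3 to 29 reads and rose by 2.01 on the log2 scale with siPOLR3A (adjusted p = 0.0001289, edgeR), and COL1A1, at 18.2 to 28.1 TPM, rose by 0.32. The epithelial keratin gene KRT18 was at 24.5 to 36.7 TPM (abundance adjusted for transcript length). The neurofilament gene NEFL was at 48.8 to 82.8 TPM. Of 6 epithelial markers 3 rose with siPOLR3A and 0 fell, EPCAM by 0.90, and of 3 neuronal markers 1 rose and 2 fell, NEFL by 0.68 and NEFM by 1.39. The part of these shifts in the other results was not tested.

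On the length-adjusted scale, TNFRSF10B was the highest of the 10 genes in each of the 4 groups. In siControl it stood at 51.0 ± 2.0 TPM (SD, n = 3), followed by FADD at 23.65 to 24.57 TPM. CFLAR at 20.6 ± 1.5 TPM and TNFRSF1A at 20.3 ± 1.0 TPM overlapped and were not separated. CASP8 stood at 12.5 ± 0.5 TPM, and TRADD at 6.79 ± 1.46 TPM overlapped RIPK1 at 5.77 ± 0.39 TPM. TNFRSF10D followed at 4.69 ± 0.40 TPM and FAS at 2.58 ± 1.44 TPM. TNFRSF10A was listed at 0 TPM in every siControl and DMSO library and did not exceed 0.041 TPM in any other. Of the pair of TRAIL receptors with a complete death domain, TNFRSF10B was therefore the one measured.

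**Figure D1:**
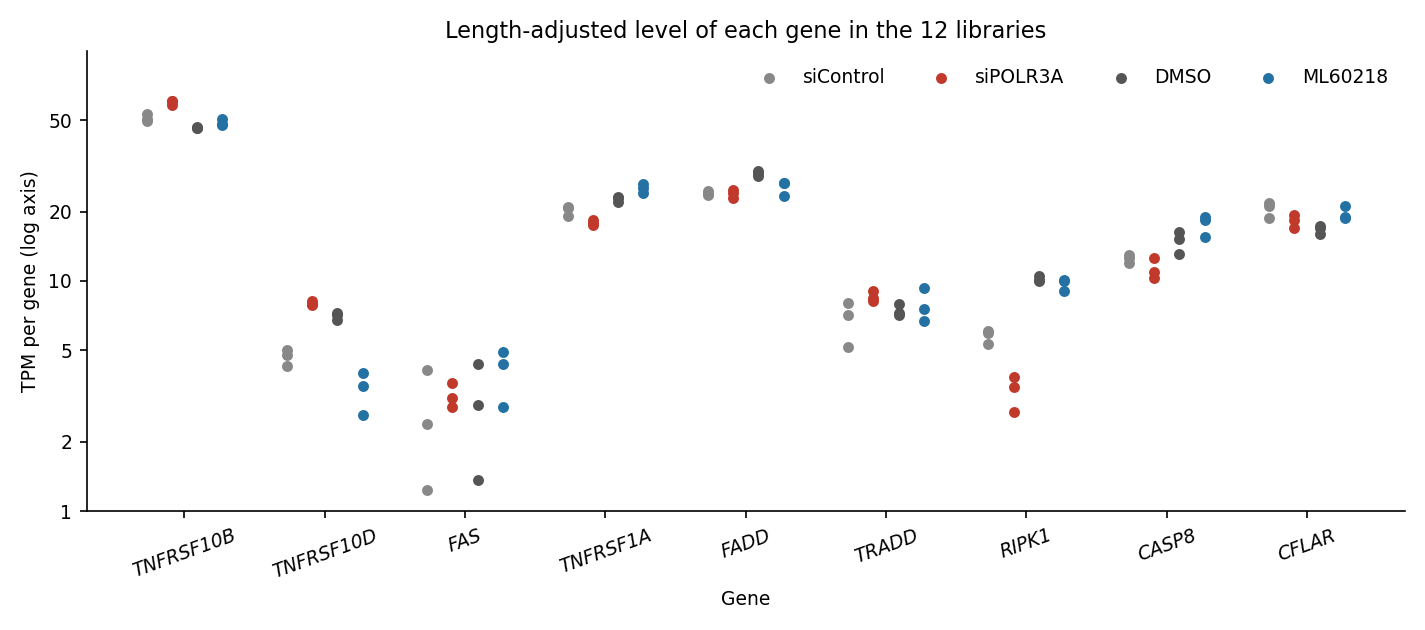
Level of 9 genes in TPM (log axis) for each of the 12 libraries, coloured by group; TNFRSF10A, at 0 to 0.041 TPM, is not drawn. TNFRSF10B sits above all the others, TNFRSF10D is higher in siPOLR3A than in siControl and lower in ML60218 than in DMSO, and RIPK1 is lowest in siPOLR3A.

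The order changed in places between groups. In siPOLR3A, TNFRSF10D at 7.98 ± 0.16 TPM stood above RIPK1 at 3.33 ± 0.58 TPM, and RIPK1 overlapped FAS at 3.18 ± 0.38 TPM. In DMSO, RIPK1 stood at 10.2 ± 0.3 TPM, above TRADD at 7.42 ± 0.46 TPM, which overlapped TNFRSF10D at 7.04 ± 0.23 TPM. In ML60218, TNFRSF10D at 3.37 ± 0.69 TPM was next to last and overlapped FAS at 4.03 ± 1.08 TPM. The controls of the experiments were handled differently, and RIPK1 and TNFRSF10D differed between them, so each treated group was compared only with its own control.

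With siPOLR3A, the receptor genes TNFRSF10D and TNFRSF10B rose, as did TRADD, while RIPK1, CFLAR, TNFRSF1A and CASP8 fell. The calls of CASP8 and TRADD were lost in 10 and 6 of 15 alternatives. In all, 7 of 9 genes passed the test at an adjusted p under 0.05, with 3 higher and 4 lower. Among all 15404 genes tested, 56.6% passed, 27.4% as higher and 29.2% as lower, so the share among these 9 genes was not far from the background. The groups did not overlap for 7 of 9 genes, against 63.4% of all genes. The median log2 fold change of the 9 genes was -0.02, and that of all genes tested was 0.01.

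For ML60218 the fall of TNFRSF10D entered the choice of the genes, so the values of the 9 genes in that comparison are given as a description and no p is printed for them. TNFRSF10D, FADD and RIPK1 were lower and under the adjusted p of 0.05, a count of 3 of 9 from which nothing is read, since it includes the gene the choice rests on. In that comparison 39.0% of 15461 genes passed, 18.1% as higher and 20.9% as lower. The groups did not overlap for 4 of 9 genes, TNFRSF10B in addition to the 3, and for 51.9% of all genes.

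**Figure D2:**
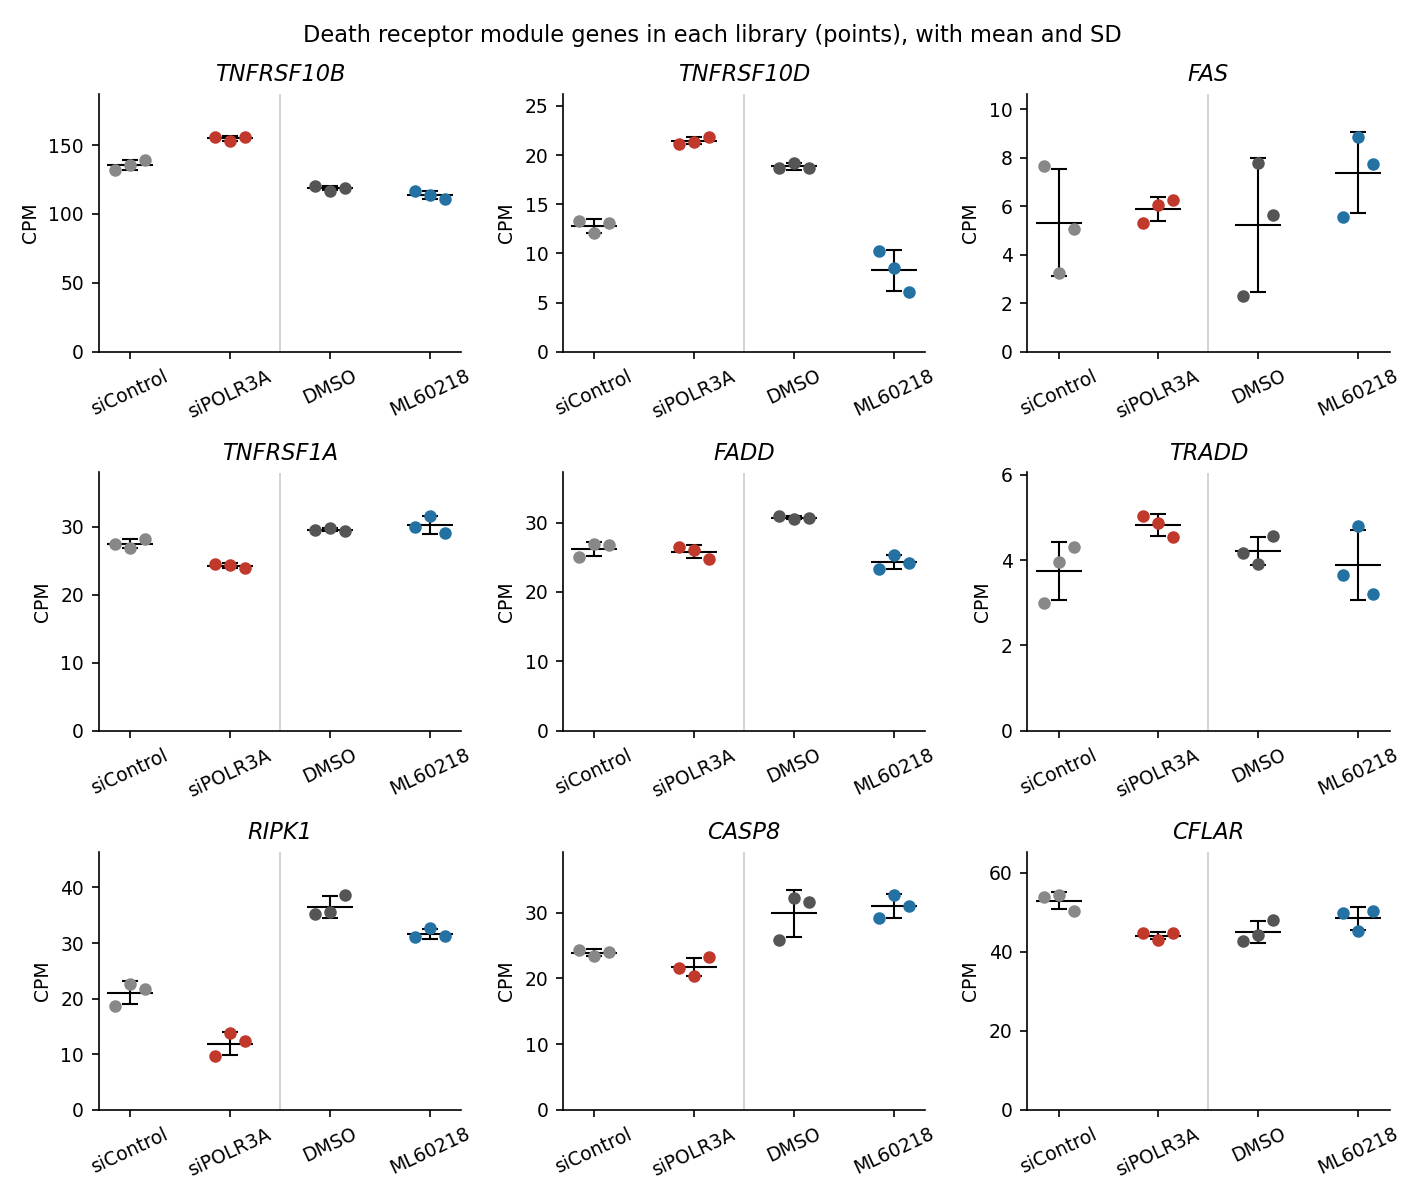
CPM of 9 genes in each library (points, 3 per group) with the mean and SD (black); the vertical line divides the siRNA experiment from the ML60218 experiment, and each axis starts at 0. TNFRSF10D lies above its control in siPOLR3A and below it in ML60218 without overlap, RIPK1 is at 9.63 to 13.7 CPM in siPOLR3A against 18.7 to 22.7 in siControl, and FAS overlaps in both comparisons.

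TNFRSF10D, the decoy receptor, lies on chromosome 8 at positions 23135588 to 23164030 of GRCh38, on the minus strand, and only 1 transcript of it was matched. In siControl it was at 13.3, 12.0 and 13.1 CPM, and in siPOLR3A at 21.1, 21.4 and 21.9 CPM. Every siPOLR3A library was above every siControl library. The rise was 0.75 on the log2 scale, or 1.68-fold (SE 0.06, adjusted p = 7.178e-08, edgeR quasi-likelihood test). It lay between 0.70 and 0.81 over 15 alternatives and passed in all of them. In DMSO the gene was at 18.6, 19.2 and 18.7 CPM, and in ML60218 at 10.2, 8.48 and 6.10 CPM. All 3 ML60218 libraries were below the DMSO libraries, and they were more spread than any other group. The log2 difference there was -1.19 (SE 0.17), a 2.29-fold lower level. It was -1.01 without ML60218 library 3 and -1.38 without ML60218 library 1.

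The rise of TNFRSF10D with siPOLR3A held place 662 among 15404 genes tested. Of 15165 genes tested in both comparisons, 1136 (7.49%) rose with siPOLR3A and fell with ML60218, directions of which the second was used to choose TNFRSF10D. Its nearest genes over the 12 libraries were found by the root mean square (RMS) difference in log2 CPM, each library taken relative to its control mean. Among 11755 genes whose log2 CPM averaged 2 or more, HSPA2, a testis-enriched member of the HSP70 chaperone family, was nearest with an RMS difference of 0.087. HSPA2 had log2 fold changes of 0.65 with siPOLR3A and -1.26 with ML60218. ZC3HAV1, an antiviral zinc finger protein, followed with an RMS difference of 0.216 and changes of 0.46 and -0.82. DOK3, an adaptor protein, came next with an RMS difference of 0.221 and changes of 0.65 and -0.86.

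TNFRSF10B encodes DR5, the TRAIL receptor with a complete death domain that could be measured here. The gene spans positions 23020133 to 23069179 of chromosome 8 on the minus strand. It was at 132, 136 and 139 CPM in siControl and at 156, 153 and 156 CPM in siPOLR3A. The groups did not overlap, and the rise of 0.19 on the log2 scale (SE 0.03, adjusted p = 3.137e-05, edgeR) corresponds to 14.3%. In DMSO it was at 121, 117 and 119 CPM and in ML60218 at 117, 114 and 111 CPM. The ML60218 libraries were slightly below those of DMSO, by 0.06 on the log2 scale with TMM scaling, and with total counts the difference was 0.007 in the other direction. On the TPM scale the ML60218 libraries, at 47.5, 47.8 and 50.7, were all above those of DMSO, at 46.0, 46.8 and 46.0. The transcript with the longest coding sequence, TNFRSF10B-201 with 440 codons, held 61.4% ± 3.2 of the gene's TPM (SD over 12 libraries). TNFRSF10B-202, with 411 codons, held 10.9% ± 1.8. TNFRSF10B-208, annotated as a retained intron, held 17.3% ± 2.3.

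The ratio of TNFRSF10B to TNFRSF10D in TPM sets the receptor with a death domain against the decoy. It was 9.83, 11.8 and 11.1 in siControl and 7.72, 7.32 and 7.39 in siPOLR3A. It was 6.48, 6.46 and 6.77 in DMSO and 11.9, 13.7 and 19.3 in ML60218. The ratio was lower in every siPOLR3A library and higher in every ML60218 library than in its own controls, which follows from the changes of TNFRSF10D. The ML60218 ratio varied most, with a mean of 14.9 ± 3.9 (SD, n = 3).

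TNFRSF10A encodes DR4, the other TRAIL receptor with a death domain, at positions 23190452 to 23225126 of chromosome 8 on the minus strand. It had 0 estimated reads in all siControl and DMSO libraries. The siPOLR3A libraries had 2.4, 2.0 and 2.3 estimated reads, and the ML60218 libraries 0, 3.0 and 2.0. No value exceeded 3 reads, so no fold change is given and no difference was detectable at this depth. TNFRSF10C, the TRAIL decoy without an intracellular domain and the neighbour of TNFRSF10D, had between 14 and 37 reads. Its log2 fold change was -0.62 with siPOLR3A (SE 0.28, adjusted p = 0.0706, edgeR) and -0.42 with ML60218 (SE 0.27, adjusted p = 0.2471). TRAIL receptor genes are similar in sequence, and how the authors' program divided reads that match several of them is not known.

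FAS, the receptor of FAS ligand, was the least precise of the 9 genes. It lies on chromosome 10 at positions 88990582 to 89015785 on the plus strand. It was at 7.66, 3.25 and 5.06 CPM in siControl and at 5.30, 6.06 and 6.23 CPM in siPOLR3A. In DMSO it was at 2.28, 7.76 and 5.64 CPM and in ML60218 at 5.56, 8.87 and 7.72 CPM. The groups overlapped in both experiments, and the controls alone differed more than 2-fold. The log2 fold change with siPOLR3A was 0.14 with a 95% interval of -0.73 to 1.02 (adjusted p = 0.7479, edgeR). Transcripts placed between those of FAS in the table but not matched to the annotation held 58.4% of the reads of that block. With them included the log2 fold change was 0.24 and passed (adjusted p = 0.001987). Without siControl library 1 it was 0.50 (adjusted p = 0.03879), and without siControl library 2 it was -0.12. The log2 difference with ML60218 was 0.49 (SE 0.49).

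TNFRSF1A, the TNF receptor, lies on chromosome 12 at positions 6328757 to 6342114 on the minus strand. It was at 27.4, 26.9 and 28.3 CPM in siControl and at 24.6, 24.3 and 23.9 CPM in siPOLR3A. The groups did not overlap, and the gene fell by 0.18 on the log2 scale (SE 0.05, adjusted p = 0.003432, edgeR). It was at 29.5, 29.8 and 29.4 CPM in DMSO and averaged 30.2 ± 1.3 CPM in ML60218 (SD, n = 3), and these groups overlapped. The transcript TNFRSF1A-201, of 455 codons, held 84.5% ± 2.2 of the TPM.

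**Figure D3:**
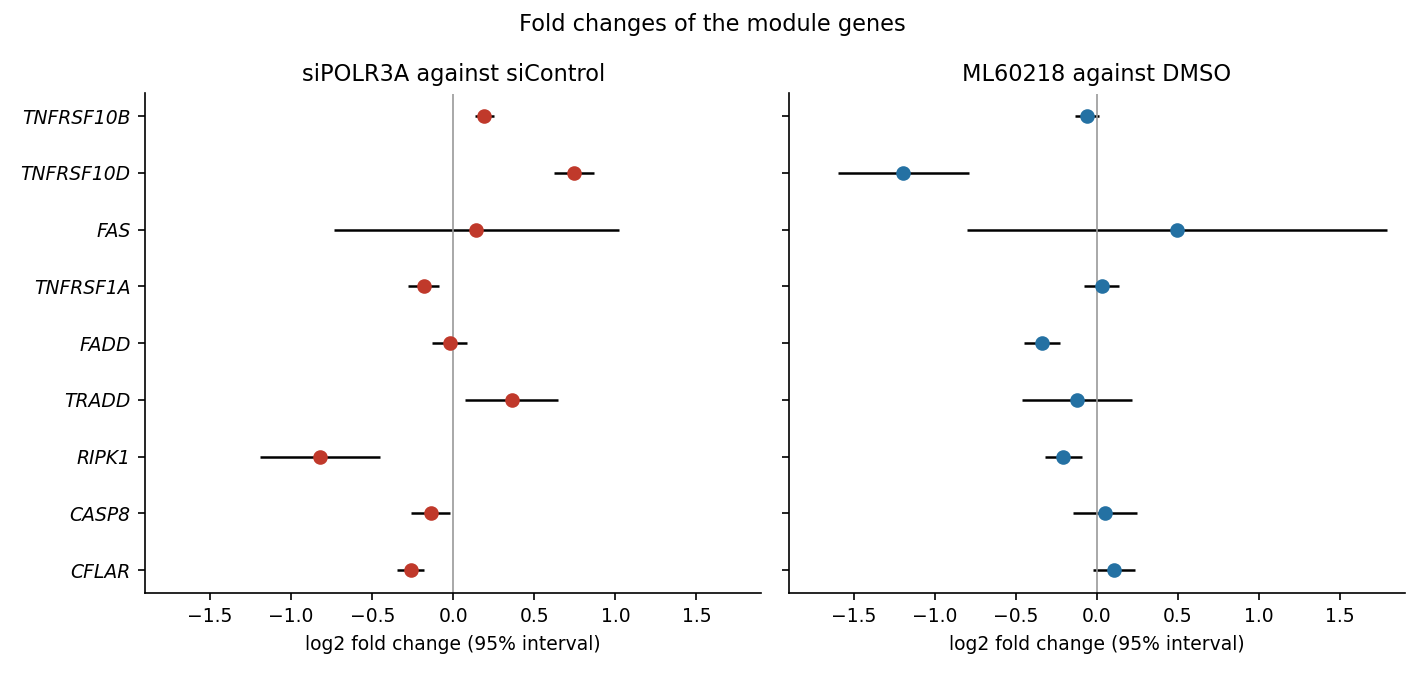
Log2 fold change (points) and 95% interval (lines) of 9 genes from edgeR, for siPOLR3A against siControl on the left and ML60218 against DMSO on the right. TNFRSF10D lies at 0.75 on the left and at -1.19 on the right, RIPK1 at -0.82 and -0.21, and the interval of FAS is the widest in both.

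RIPK1 encodes the death domain kinase that links TNFRSF1A to NF-kB and, when it is active, to cell death. It had the largest fall of the 9 genes with siPOLR3A. It was at 18.7, 22.7 and 21.7 CPM in siControl and at 9.63, 13.7 and 12.4 CPM in siPOLR3A, with no overlap. It fell by 0.82 on the log2 scale, or 1.77-fold (SE 0.15, adjusted p = 0.004408, edgeR). It lay between -0.94 and -0.65 over the 15 alternatives and passed in all of them. The smallest fall came with unmatched neighbouring transcripts, which held 11.9% of the reads of the block. In DMSO it was at 35.2, 35.6 and 38.7 CPM and in ML60218 at 31.0, 32.7 and 31.2 CPM. All ML60218 libraries were lower in CPM, and the log2 difference was -0.21 (SE 0.05). It lay between -0.23 and -0.14 over the alternatives and was not called in 4 of 15. In TPM the groups overlapped, at 10.11, 10.02 and 10.51 in DMSO and 9.03, 10.03 and 10.11 in ML60218. The transcript RIPK1-201, of 671 codons, held 97.4% ± 2.8 of the gene's TPM.

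RIPK1 lies on chromosome 6 at positions 3063991 to 3115187 on the plus strand. The study asked about Pol III at promoters of protein-coding genes. The first of 3 RefSeq starts of RIPK1, the gene with the largest fall of the 9, is therefore shown. Which of these starts RIPK1-201 uses is not given here. The RefSeq window of 300 bases, chr6:3063717-3064016 of GRCh38.p14 on the plus strand, begins 250 bases before the first annotated start. Capitals mark its TATAAA, which begins 30 bases before the start.
RIPK1 promoter: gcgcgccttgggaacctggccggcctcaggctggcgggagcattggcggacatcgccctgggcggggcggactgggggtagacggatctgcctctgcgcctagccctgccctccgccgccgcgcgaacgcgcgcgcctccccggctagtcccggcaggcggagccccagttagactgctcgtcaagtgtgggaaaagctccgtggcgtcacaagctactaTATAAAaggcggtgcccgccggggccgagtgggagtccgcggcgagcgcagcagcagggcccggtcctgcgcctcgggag
On either strand, TATAAA occurs in 11.5% of 35116 promoter windows of this length. The B box core of type 2 Pol III promoters, GTTCNANNC, occurs in 7.48% of them. RefSeq windows were held for FAS, TNFRSF1A, FADD, RIPK1, CASP8 and CFLAR, and 0 of their 15 windows contained that core. TATAAA was absent from the windows of RIPK1 starts 2 and 3. It was present in that of CASP8 start 2, 139 bases before the start. The AP-1 site TGANTCA is found in 7.71% of windows. Those of FAS start 1, FADD start 1, CASP8 starts 2 and 3 and CFLAR start 3 held it. FAS, CASP8 and CFLAR had several windows each, so that share is not to be set against a count of genes. The cyclic AMP response element TGACGTCA and the amino acid response element core TGATGNAAT, in 1.85% and 0.991% of windows, occurred in 0 of the 15.

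The 3′ UTRs were also searched for GAGGGA and GACGTA, 6-base sequences chosen after values had been seen. In the 3′ UTR of 1 transcript for each gene, GAGGGA was present in 66.1% of the 289 genes that fell 2-fold or more with siPOLR3A. It was present in 29.5% of 5910 genes that did not pass and in 32.8% of all 14381 genes scanned. GACGTA was present in 10.7% of the 243 genes that rose 2-fold or more, and in 3.11% of those that did not pass. Because the sequences were chosen with these values known, the shares describe the choice and support nothing, and UTR length was not taken into account. RIPK1-201 held 3 copies of GAGGGA, TNFRSF10D-201 held 2 with 1 of GACGTA, and TNFRSF1A-201 held 1. The transcripts scanned for TNFRSF10B, FAS, FADD, TRADD, CASP8 and CFLAR, 1 for each gene, held 0 of either. For FAS this was FAS-217, annotated for nonsense-mediated decay, and for CFLAR it was CFLAR-203, with a UTR of 165 bases, so other transcripts of these genes were not scanned. The sites of RIPK1-201 and TNFRSF1A-201 are shown with 8 bases on each side, from the GENCODE 29 transcripts, with the 6 bases in capitals. Those of TNFRSF10D-201, whose gene rose with siPOLR3A, are not shown.
RIPK1-201, base 891 of the 3′ UTR: gccctggaGAGGGAacaggaaa
RIPK1-201, base 1202: tctccccaGAGGGAgggcgaga
RIPK1-201, base 1672: ggagaatgGAGGGAggctccag
TNFRSF1A-201, base 242: gcgaggatGAGGGAcgctatgc
The sites are printed as positions in the transcripts, and their part in any change was not tested.

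FADD, the adaptor between death receptors and caspase-8, showed no change with siPOLR3A that passed the test. It lies on chromosome 11 at positions 70203163 to 70207390 on the plus strand, and 1 transcript was matched. It was at 25.0, 26.9 and 26.8 CPM in siControl and at 26.5, 26.1 and 24.8 CPM in siPOLR3A, and the groups overlapped. The log2 fold change was -0.02 with a 95% interval of -0.13 to 0.08 (adjusted p = 0.7145, edgeR), and without siPOLR3A library 3 it was 0.004. In DMSO it was at 31.0, 30.5 and 30.6 CPM and in ML60218 at 23.3, 25.4 and 24.2 CPM. All ML60218 libraries were below all DMSO libraries, with a log2 difference of -0.34 (SE 0.05). It was -0.27 with total counts.

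TRADD, the adaptor of TNFRSF1A, lies on chromosome 16 at positions 67154180 to 67160298 on the minus strand. It was at 2.99, 3.95 and 4.30 CPM in siControl and at 5.05, 4.87 and 4.54 CPM in siPOLR3A. The groups did not overlap, and the rise was 0.36 on the log2 scale (SE 0.13, adjusted p = 0.03293, edgeR). This call was lost in 6 of 15 alternatives, with adjusted p up to 0.1559. It was lost without siControl library 1 (0.23, adjusted p = 0.1355), without siPOLR3A library 1 (0.32, 0.1038) and without siPOLR3A library 2 (0.35, 0.08396). In DMSO TRADD was at 3.91 to 4.56 CPM and in ML60218 at 3.21 to 4.81 CPM, and the ranges overlapped.

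CASP8, the initiator caspase of the death receptor complex, lies on chromosome 2 at positions 201233443 to 201287711 on the plus strand. It was at 24.4, 23.4 and 24.1 CPM in siControl and at 21.6, 20.4 and 23.2 CPM in siPOLR3A. The groups did not overlap, and the gene fell by 0.14 on the log2 scale (SE 0.06, adjusted p = 0.04442, edgeR). The call was lost in 10 of 15 alternatives, with adjusted p up to 0.2301. Leaving out any siControl library, or siPOLR3A library 1 or 2, ended it, at log2 fold changes between -0.16 and -0.10. Unmatched transcripts held 46.1% of the reads of the CASP8 block, and with them the log2 fold change was -0.22. In DMSO it was at 25.8, 32.3 and 31.7 CPM and in ML60218 at 29.2, 32.8 and 31.0 CPM, which overlapped.

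CFLAR, on chromosome 2 like CASP8, lies at positions 201116104 to 201176687 on the plus strand. It was at 53.9, 54.5 and 50.4 CPM in siControl and at 44.6, 43.0 and 44.6 CPM in siPOLR3A. All siPOLR3A libraries were lower, and the gene fell by 0.26 on the log2 scale (SE 0.04, adjusted p = 4.032e-05, edgeR). With an offset for isoform length the change was -0.19 (adjusted p = 0.05164), and it passed in the other 14 alternatives. In DMSO it was at 42.8, 44.2 and 48.0 CPM and in ML60218 at 49.7, 45.2 and 50.4 CPM. These overlapped in CPM, with a log2 difference of 0.11 (SE 0.06). In TPM the gene was at 17.0, 16.0 and 17.3 in DMSO and at 18.7, 19.0 and 21.1 in ML60218, with no overlap. The ratio of CFLAR to CASP8 in TPM was 1.65 ± 0.17 in siControl and 1.63 ± 0.14 in siPOLR3A (SD, n = 3). It was 1.14 ± 0.16 in DMSO and 1.12 ± 0.09 in ML60218, and within each experiment the ranges overlapped.

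CFLAR is known for a long and a short protein form, and CASP8 for several active forms, so their transcripts were grouped by coding length. CFLAR transcripts with over 400 codons, among them CFLAR-201 with 480, summed to 5.55, 4.52 and 4.40 TPM in siControl. In siPOLR3A they summed to 3.53, 3.02 and 3.45 TPM, with no overlap. In DMSO they were at 3.75, 3.94 and 3.96 TPM and in ML60218 at 4.33, 4.38 and 5.47 TPM, again with no overlap and higher, as was the summed TPM of the whole gene. Shorter coding transcripts of CFLAR, such as CFLAR-203 with 221 codons, overlapped between siControl and siPOLR3A at 8.48 to 9.17 and 7.11 to 9.12 TPM. They also overlapped between DMSO and ML60218.

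CASP8 transcripts with over 400 codons were at 5.59, 5.78 and 5.10 TPM in DMSO and at 6.65, 8.92 and 8.31 TPM in ML60218, all higher. In siControl and siPOLR3A they were at 4.44 to 5.14 and 3.50 to 4.46 TPM, and these overlapped. With 3 libraries a group, an exact permutation test of such a sum cannot give a two-sided p below 0.1, and none was run. The program's division of reads between overlapping transcripts adds an error that these values do not show. The noncoding CASP8-220 took 30.3% of the summed CASP8 TPM, and 16.3% when unmatched neighbouring transcripts were included.

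**Figure D4:**
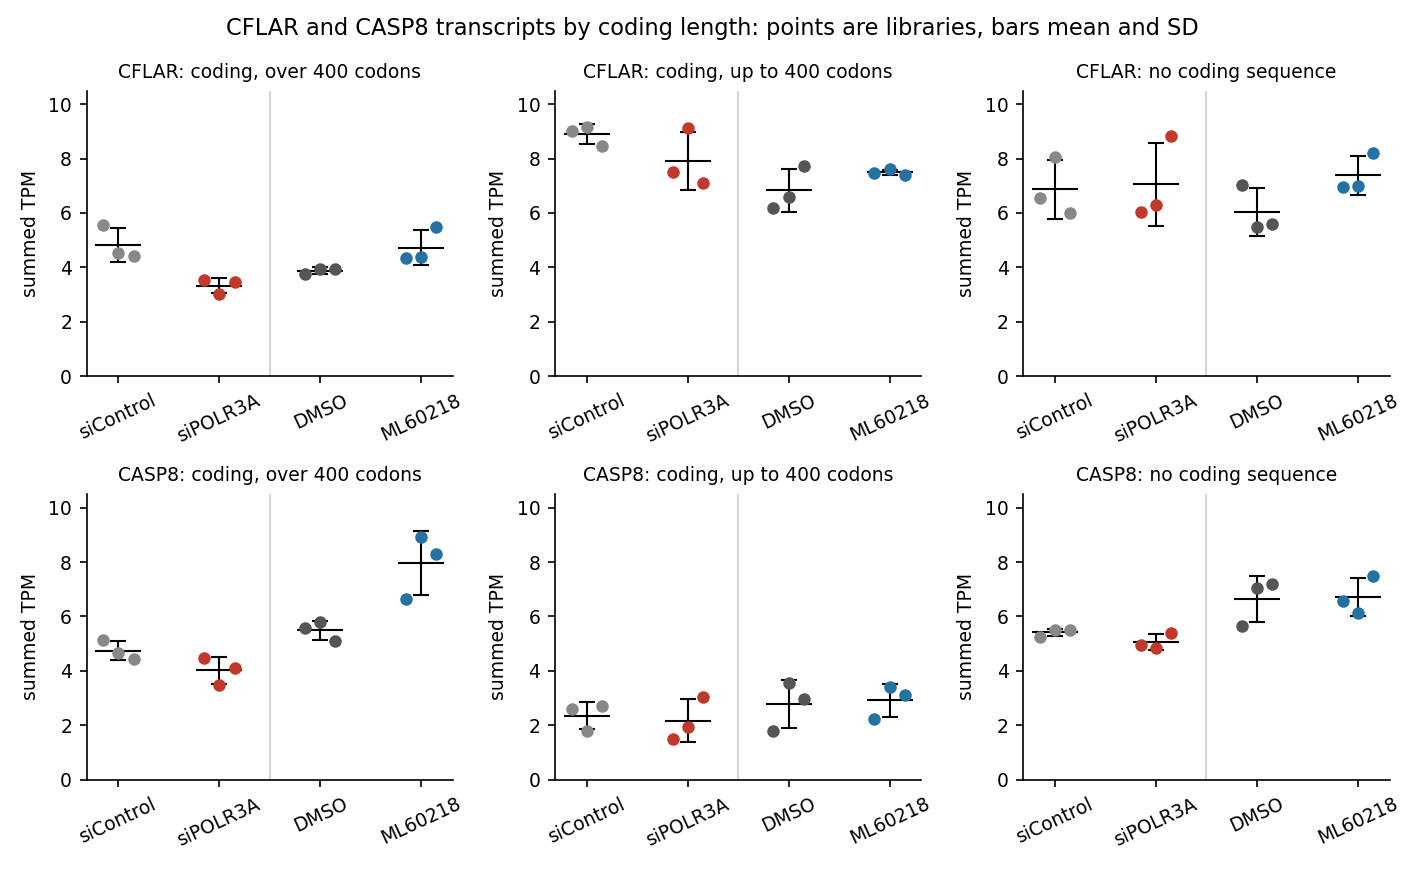
Summed TPM of CFLAR (top) and CASP8 (bottom) transcripts, grouped as over 400 codons, up to 400 codons and without a coding sequence; points are libraries, and black bars the mean and SD. CFLAR transcripts with over 400 codons average 4.82 TPM in siControl and 3.33 in siPOLR3A, and those of CASP8 average 5.49 TPM in DMSO and 7.96 in ML60218.

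The rest of the pathway was read from 10 lists with 74 genes, of which 61 were tested. Few reads were assigned to death ligands: FASLG had at most 1 and TNFSF10, which encodes TRAIL, between 2 and 14.3. TNF and LTA were listed at 0 in every library, as were DAXX and CASP8AP2, genes that most cells express, so a listing at 0 is not read as absence. TNFSF15, the only ligand tested, overlapped between groups in both experiments. With siPOLR3A, 42 of 61 genes passed, 24 as higher and 18 as lower, and their median log2 fold change was 0.03. With ML60218, 31 of 61 passed, 21 as higher and 10 as lower, with a median of 0.10. The medians of all genes tested were 0.01 in both comparisons, and 56.6% and 39.0% of them passed. The adjusted p-values that follow are from edgeR.

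In the NF-kB list, 5 of 9 genes were higher and 1 lower with siPOLR3A, where 27.4% of all genes were higher and 29.2% lower. NFKBIA, the inhibitor that retains NF-kB in the cytoplasm and is itself an NF-kB target, rose from 12.7 ± 0.9 to 21.8 ± 2.7 CPM (log2 fold change 0.79, adjusted p = 3.13e-05). NFKB1, the p50 precursor, rose from 21.4 ± 1.2 to 30.7 ± 1.4 CPM (0.52, adjusted p = 1.531e-06). In the TNF receptor complex and its ubiquitin enzymes, 7 of 14 were higher and 4 lower. TAB1, which activates the kinase TAK1, fell by 0.98 on the log2 scale (adjusted p = 4.017e-10) from 37.9 ± 1.0 to 19.2 ± 0.6 CPM. TNIP1 and CYLD, both negative regulators of this complex, fell by 0.55 and 0.50, while TNFAIP3, which encodes A20, rose by 0.57. Over the alternatives the CYLD change lay between -0.525 and -0.179 and passed in all of them.

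Among the other caspases, 4 fell with siPOLR3A. CASP10, the close relative of CASP8 that also binds FADD, fell from 24.2 ± 0.9 to 16.7 ± 0.5 CPM (-0.53, adjusted p = 1.045e-06). CASP9, CASP6 and CASP2 were the others that fell, by 0.37, 0.36 and 0.17 on the log2 scale. XIAP, which binds and inhibits caspases, rose from 147 ± 3 to 201 ± 5 CPM (0.46, adjusted p = 4.349e-09), 1 of 2 inhibitors of apoptosis that rose among 5 tested. TNFRSF25, a death receptor, rose by 0.48, and CRADD, the adaptor of caspase-2, fell by 0.41. HTRA2, a mitochondrial protease, was at 0.20 and lost its call in 2 of 15 alternatives, among them without siPOLR3A library 3 (adjusted p = 0.05595). PGAM5, a mitochondrial phosphatase, was at -0.10 and lost its call in 5 of 15 alternatives. Among these were the fits without siControl library 3 (0.08023) or siPOLR3A library 3 (0.05555).

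With ML60218, the list of regulators of TRAIL receptor transcription and their upstream sensors had 7 of 8 genes higher and 0 lower, and ATF4 did not pass. Of all genes tested, 18.1% were higher and 20.9% lower. The list was chosen with earlier results of these data known, and the SP1 call was lost in 5 of 15 alternatives. DDIT3 encodes CHOP, a stress-induced factor known to raise TNFRSF10B transcription. It rose from 6.96 ± 0.43 to 29.9 ± 3.0 CPM (log2 fold change 2.10, adjusted p = 1.511e-06). CEBPB rose from 8.87 ± 0.20 to 17.9 ± 1.6 CPM (1.01, adjusted p = 7.405e-05). ERN1, a sensor of unfolded protein, and XBP1, the transcript it splices, rose by 0.60 and 0.59. TNFRSF10B itself stood at 119 ± 2 CPM in DMSO and 114 ± 3 CPM in ML60218, and at 46.2 ± 0.5 and 48.7 ± 1.8 TPM, so the scales differ in direction. With siPOLR3A, 2 of the 8 regulators rose and 3 fell, among them ERN1, whose call was lost in 8 of 15 alternatives, without siControl library 1 or 3 and siPOLR3A library 2 or 3 among these. CEBPB rose by 0.28 there, and DDIT3 was at 0.19 (adjusted p = 0.1368). ATF4 was counted as higher with siPOLR3A, at 0.18. It lay between -0.23 and 0.24 over the alternatives, so its direction depended on the processing.

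Among other genes, NFKB2 rose with ML60218 from 3.03 ± 0.73 to 6.11 ± 0.60 CPM (1.01, adjusted p = 0.001967). The size of the NFKB2 rise depended on the processing, between 0.22 and 1.12 over the alternatives, and it passed in all of them. NGFR, a death domain receptor for neurotrophins, rose from 1.83 ± 0.30 to 4.02 ± 1.19 CPM (1.14, adjusted p = 0.004913). PIDD1, which activates caspase-2 together with CRADD, rose by 0.32. BIRC5, which encodes survivin, fell by 0.38, the only 1 of 5 inhibitors of apoptosis that fell while 3 rose. CYCS, which encodes cytochrome c, fell by 0.29, SPATA2, a partner of CYLD, by 0.34 and PGAM5 by 0.21.

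**Figure D5:**
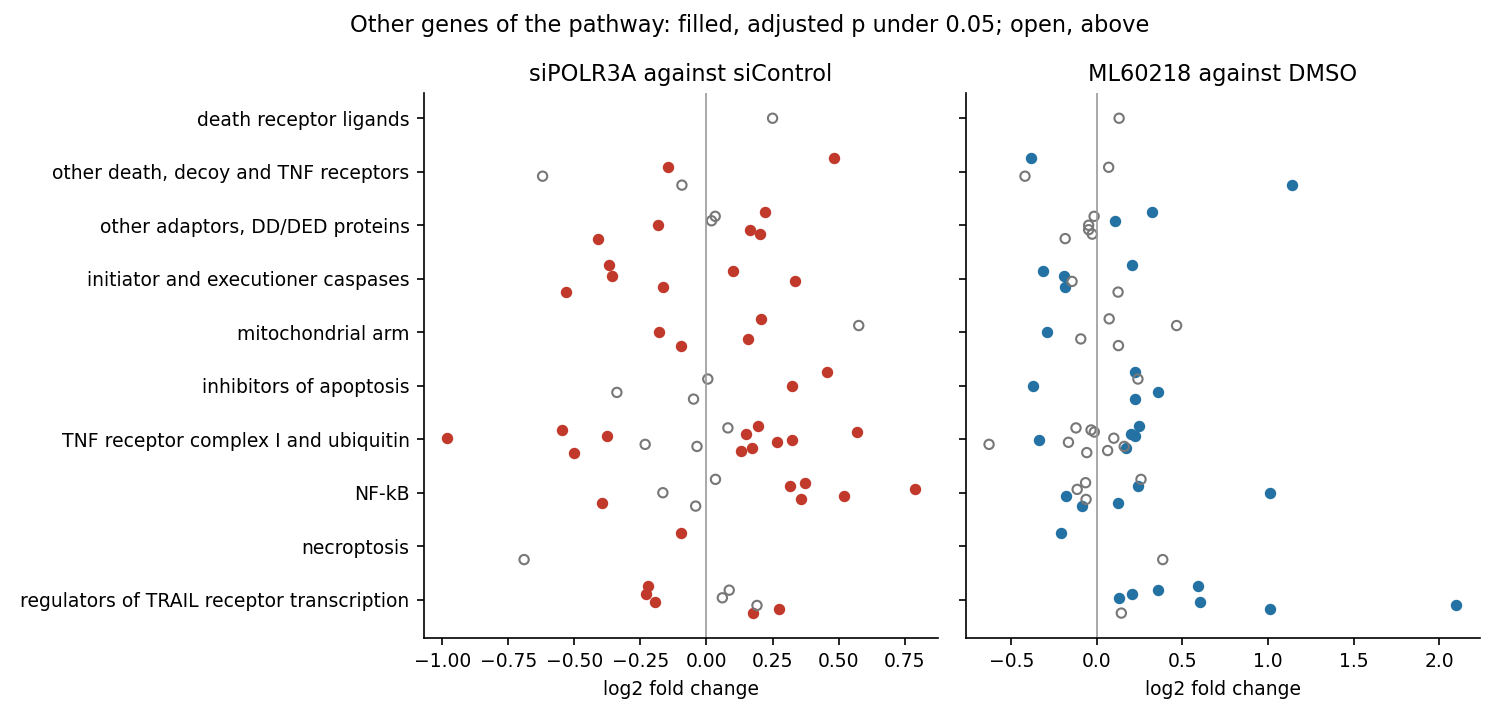
Log2 fold change of each tested gene of the 10 pathway lists (rows) for siPOLR3A against siControl (left) and ML60218 against DMSO (right); filled points passed an adjusted p under 0.05 and open points did not. On the left TAB1 lies farthest down at -0.98, and on the right DDIT3 lies farthest up at 2.10, with all but 1 of the 8 regulators of TRAIL receptor transcription filled and above 0.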

How the data were processed

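The deposited table held estimated counts and TPM (abundance adjusted for length) for 194142 transcripts, with lengths, in columns that per the file headers are those of salmon. Its version, settings and transcript release are not given in the sources used here. The submitters' processing notes name bcl2fastq 2.20, Trim Galore, DESeq2 and hg38, and per the labels the libraries were stranded. Transcripts were matched by stable identifier to GENCODE 29 (GRCh38), 158359 of them (81.6%), and the unmatched rows held 8.37% to 8.97% of a library's reads. The deposited estimated counts and TPM were added up for each gene, and the counts then rounded. A TPM value depends on all other transcripts in its library.

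Both comparisons were fitted separately in edgeR 4.0.16 (R 4.3.3), using only the 6 libraries concerned. The fits used filterByExpr (minimum count 10, minimum total 15), TMM scaling, the robust two-sided quasi-likelihood test and Benjamini-Hochberg adjustment over all genes tested. A gene was called, or passed, at an adjusted p under 0.05. CPM used TMM-scaled library sizes. Scripts were tested on simulated data. The design had assumed counts per gene. Alternatives were RLE, upper quartile and total count scaling, no filter, DESeq2 1.42.0, a replicate block, neighbouring unmatched transcripts, an isoform length offset, 1 fit of all 12 libraries, and leaving out each library.

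The members and lists were chosen with earlier results of these data known. Genes named from the lists were those called with a log2 fold change of 0.5 or more in either direction and no overlap, otherwise the largest called change of a list. CASP2, CASP6, CASP9, ATF4, SP1, TNFRSF10C and TNFSF15 were named after their values were seen. The grouping by coding length and the TPM ratios were also chosen after the values were seen. Genes at low depth, such as TNFRSF10A, give no usable fold change. DAXX, NFKBIB and RIPK3 were not analysed here, and some results for other listed genes are not reported here.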

Additional observations from a re-analysis of the deposited data

Results flagged for a closer look

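For some genes every treated library lay on one side of its controls in CPM with siPOLR3A and on the other side with ML60218. The difference between the effects was not tested, and time, agent and controls differ between the experiments. The values are the log2 fold change with siPOLR3A minus that with ML60218. For TNFRSF10D it was 1.94, and for TNFRSF10B 0.26, where the ML60218 difference was -0.06, turned with total counts and went the other way in TPM. Among pathway genes it was 0.87 for TNFRSF25, 0.70 for NFKB1, 0.70 for BIRC5 and 0.66 for SPATA2, which were higher with siPOLR3A and lower with ML60218. It was -1.08 for TAB1, -0.81 for XBP1 and -0.66 for CASP10, which were lower with siPOLR3A and higher with ML60218. With ML60218 alone, TAB1 (0.10, adjusted p = 0.09489) and CASP10 (0.12, adjusted p = 0.06418) did not pass the edgeR test. The ML60218 calls of TNFRSF25 and NFKB1 were lost in 7 and 6 of 15 alternatives.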

How the results depend on the processing

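Over the 15 alternatives of each comparison, 611 of 648 recomputed values for single genes kept their direction and their side of the threshold or moved by less than 1 SD. Of the others, 24 lost and 2 gained a call, 4 changed sign and 7 moved. For the 9 genes with ML60218, only moves in value were scored, so these totals leave out their calls and changes of sign. RIPK1 was not called there in 4 of 15 alternatives. CASP8 and CFLAR, not called in the main fit of ML60218, were not called in 14 of 15. With siPOLR3A, 7 of the 9 genes tested passed, and with an offset for isoform length 4 did, TRADD, CASP8 and CFLAR being lost; the cause was not tested. Leaving out 1 library gave 5 to 7. DESeq2 called 5, and with the replicate block the number was 7. For ML60218 these counts were 2 to 3. The sign of the FADD change with siPOLR3A turned to 0.036 under upper quartile scaling and to 0.026 under total counts, and lay between -0.052 and 0.004 with 1 library left out. That of FAS lay between -0.12 and 0.50, and the lowest value came without siControl library 2. Same-numbered libraries did not deviate together, with correlations between -0.11 and 0.06, so the numbers are not taken as pairs. The replicate block gave 42 pathway genes called with siPOLR3A, as without it, and 27 instead of 31 with ML60218. At most 3 reads were assigned to TNFRSF10A and at most 37 to TNFRSF10C, which limits both.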
